A study of Mus musculus with 9 samples.

Results

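Macrophages cultured on a zirconium-based metallic glass with tantalum (Zr58Cu25Al14Ta3, here Ta3) were compared with macrophages cultured on the glass without it (Zr61Cu25Al14, here Ta0). The comparison took the 3 Ta3 and the 3 Ta0 libraries, 6 of the 9 in the series, and every gene that reached 1 FPKM in 3 or more of the 9, which were 10858 of 54532 genes. FPKM counts fragments per kilobase of gene relative to a scale for each library, here set by the authors. The cells were primary macrophages grown from the bone marrow of wild-type mice, and both groups had been on their material for 48 h. The other 3 libraries came from the same kind of cells on cp titanium (cpTi) and entered the fit for the spread between libraries. The word xenograft, given as the tissue, played no part here. The columns were tied to the glasses by composition, and a reversed reading would turn every direction given below. Whether the 3 libraries of a material stem from different mice or dishes is not labelled. The tests therefore set differences against the spread of these particular libraries, which may be technical.

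Macrophages are phagocytes of the innate immune system and among the first cells to settle on an implant. They adhere through integrins, which link the matrix to the actin cytoskeleton, sense microbial and damage signals through pattern receptors, and answer with cytokines and chemokines. Metal released from an implant can be bound by metallothioneins or moved by copper and zinc transporters. In a metallic glass the atoms of an alloy lack crystalline order, and tantalum is a metal that is itself used in bone implants.

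No gene was called different between the glasses at an adjusted p under 0.05 (0 of 10858, 0%), and the smallest Benjamini-Hochberg adjusted p from limma was 0.846. At an unadjusted p under 0.05 the count was 462 genes (4.25%), of which 217 were higher on Ta3 (2.00%) and 245 were lower (2.26%). The 3 Ta3 libraries lay wholly above the 3 Ta0 libraries for 445 genes (4.10%) and wholly below them for 529 (4.87%). These shares are the background for any gene described below as higher or lower in each Ta3 library. For 6927 genes (63.8%) the 95% interval lay within a doubling or a halving on the log2(FPKM + 1) scale, which understates the change of low genes. The median SE of a log2 difference was 0.25 and the median difference was -0.04. The FPKM of a gene are given in the order of the replicates. Its log2 difference is the log2(FPKM + 1) of Ta3 minus that of Ta0, given with the SE and the 95% interval of the limma fit, and every gene had an adjusted p of at least 0.846. The count at an unadjusted p under 0.05 rested on single libraries: it was 2035 without Ta3 replicate 3, 280 without Ta3 replicate 2, 211 without Ta0 replicate 1, 188 without Ta0 replicate 3 and 291 without cpTi replicate 1.

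The Ta3 libraries differed among themselves by as much as the glasses did. Over all tested genes, the median absolute log2 difference between libraries was 0.23 to 0.312 within Ta0, 0.299 to 0.738 within Ta3 and 0.188 to 0.627 between the glasses. The closest pair across the glasses, Ta0 replicate 2 and Ta3 replicate 1, was closer than any pair within either glass. The first principal component, with 72% of the variance, spread the libraries of each material, from -65.4 to 10.5 for Ta0 and from -64.0 to 74.1 for Ta3. Ta0 replicate 1 and Ta3 replicate 3 lay at its low end together, and Ta3 replicate 2 at its high end. The 38 listed ribosomal protein genes took 10.04%, 4.25% and 5.99% of the reads of the Ta0 libraries and 5.60%, 1.47% and 9.18% of those of the Ta3 libraries. The slope of a library's values on log2 gene length ran from -0.23 to 0.03 on Ta0 and from -0.21 to 0.27 on Ta3. Read totals rebuilt from the FPKM and gene lengths were 15517877 to 18689963 over the 9 libraries. The scale behind the FPKM was not that total: it was equal to 9078170 reads for Ta0 replicate 1 and 9775248 for Ta3 replicate 3, and ran up to 21575196 for Ta3 replicate 2 among the glass libraries. Genes above 0 numbered 15678, 18572 and 18524 on Ta0 and 19705, 19959 and 13466 on Ta3, fewest in Ta0 replicate 1 and Ta3 replicate 3. Of the genes with 1 to 20 rebuilt reads, 9.77%, 26.8% and 25.4% had a single read on Ta0. On Ta3 the shares were 22.4%, 27.9% and 7.89%, so the same 2 libraries were lowest. Summed FPKM ran from 305491 to 1251565 over the 6 glass libraries.

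The second component, with 10.4% of the variance, placed the 3 Ta3 libraries at -14.1 to -22.6, below the 3 Ta0 libraries at -4.31 to 7.49 and the cpTi libraries at 4.67 to 29.1. The genes with the largest weights on it were the formyl peptide receptors Fpr2 and Fpr1, the chemokines Cxcl3 and Cxcl2 and the itaconate enzyme gene Acod1 at the cpTi end, and Mamdc2, Hbb-bs, Itgax and Bex1 at the other. Of these, Fpr2 also separated the glasses, but only just, with Ta0 replicate 2 at 7.775 FPKM and Ta3 replicate 1 at 7.765. Fpr1, Cxcl3, Cxcl2 and Acod1 had overlapping values on the glasses.

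**Figure D1:**
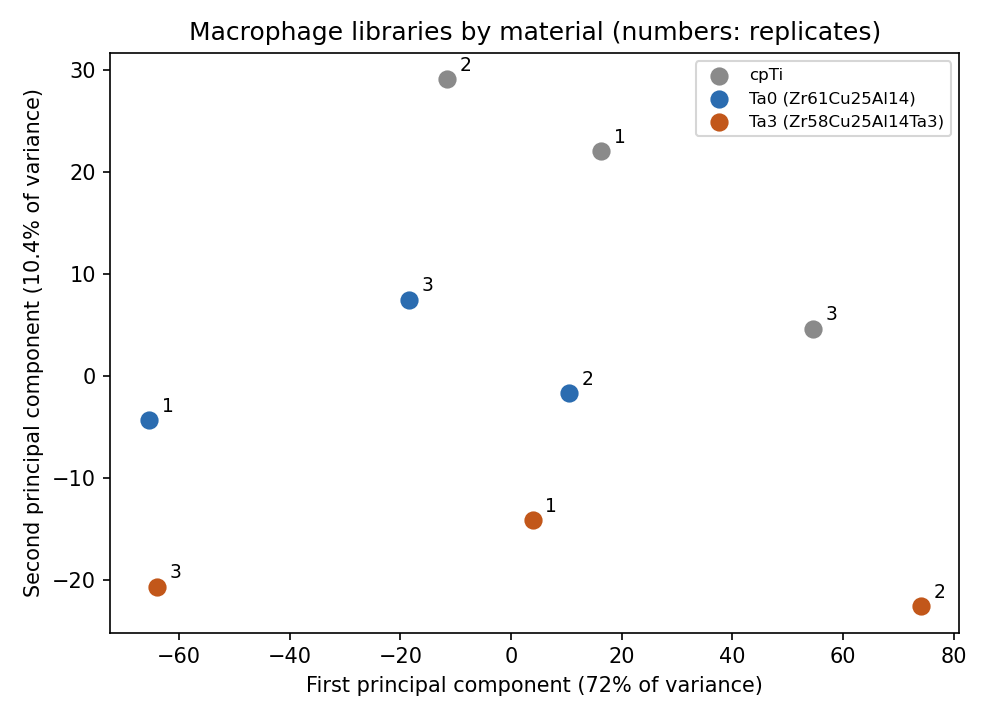
First and second principal components of log2(FPKM + 1) over the 10858 tested genes, in arbitrary component units, with a point per library, coloured by material and numbered by replicate. Ta0 replicate 1 and Ta3 replicate 3 lie together at the left, while the Ta3 libraries lie at -14.1 to -22.6 on the second component and the Ta0 libraries at -4.31 to 7.49.

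The macrophage label was checked against marker genes, and all 10 macrophage markers were at 6.12 FPKM or more in every glass library. Adgre1, which encodes the F4/80 antigen, was at 78.1, 97.6 and 91.5 FPKM on Ta0 and 78.5, 93.3 and 91.9 on Ta3, and Cd68, a lysosomal glycoprotein of macrophages, was at 1109, 1089 and 1020 FPKM on Ta0 and 1166, 1672 and 1210 on Ta3. Adgre1 overlapped between the glasses and Cd68 was higher in each Ta3 library, with a log2 difference of 0.31 ± 0.37 (SE, interval -0.54 to 1.16). Both were chosen after their values were seen. Of the 10 macrophage markers, 6 were above 0 and 4 below, from -0.71 to 0.60. Cd68 was the only 1 of the 10 with groups apart, against 4.10% of all genes wholly higher. Of 9 neutrophil markers, 6 were under 1 FPKM in every glass library and Ly6g was at 0 in all of them. S100a8, a calcium-binding alarmin and the most abundant of the list, was at 367, 83.2 and 149.7 FPKM on Ta0 and 105, 9.55 and 369 on Ta3, with a wide spread in both groups. This gene, too, was chosen after its values were seen. The summed neutrophil list ran from 112.5 to 441.7 FPKM on Ta0 and from 13.4 to 427 on Ta3. Dendritic cell, endothelial, B cell and T or NK cell lists each summed to 12.3 FPKM or less in every glass library, the mast cell and basophil list to 25.8 or less and the monocyte list to 245.3 or less. The erythroid and megakaryocyte list summed to 538.7 to 2243 FPKM on Ta0 and 156 to 2586 on Ta3, almost wholly from Pf4, a chemokine of platelets that mouse macrophages also make, at 2230, 537 and 1077 FPKM on Ta0 and 862, 156 and 2549 on Ta3. Gp9 of that list was at 0 in every glass library, while the haemoglobin gene Hbb-bs was at 10.2, 1.17 and 0.239 FPKM on Ta0 and 0.705, 0 and 28.6 on Ta3. Pf4 and Hbb-bs were highest in Ta0 replicate 1 and Ta3 replicate 3. The osteoclast list, which shares genes with macrophages, summed to 979.3 to 1241 FPKM on Ta0 and 577.9 to 1135 on Ta3, with Calcr at 0 in every glass library. The part of such cells in the results was not tested.

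The 8 genes per direction described first are the named protein-coding genes with the largest difference among those with an unadjusted p under 0.05, groups that did not overlap and at least 5 FPKM in the higher group. That rule left 66 candidates higher on Ta3 and 88 lower, and none of them passed the adjustment over all genes. Their large differences and separate groups were the condition for being chosen.

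The 8 genes higher on Ta3 were Fscn1, Vegfb, Adgre5, Gaa, Lmf2, Map1s, Zfp703 and Cherp. Fscn1 encodes fascin, which bundles actin filaments in cell protrusions. It was at 6.11, 8.12 and 5.91 FPKM on Ta0 and 11.6, 16.5 and 11.8 on Ta3, a log2 difference of 0.89 ± 0.23 (SE, interval 0.36 to 1.41). Every Ta3 library lay above the highest Ta0 library by more than 3 FPKM. Vegfb, a growth factor of the vascular endothelial family, was at 17.8, 18.6 and 15.3 FPKM on Ta0 and 26.5, 37.9 and 30.1 on Ta3, with a log2 difference of 0.82 ± 0.20 (SE, interval 0.37 to 1.27). Its cpTi libraries, at 13.4, 14.2 and 18.03 FPKM, lay near the Ta0 level. Adgre5 encodes the adhesion receptor CD97 of leukocytes. It was at 25.5, 28.8 and 23.7 FPKM on Ta0 and 40.8, 63.1 and 36.1 on Ta3, with a log2 difference of 0.78 ± 0.31 (SE, interval 0.07 to 1.496), and Ta3 replicate 2 was the highest. Gaa, the lysosomal glucosidase that breaks down glycogen, was at 16.9, 19.7 and 14.8 FPKM on Ta0 and 32.00, 53.7 and 19.98 on Ta3, with a log2 difference of 0.90 ± 0.38 (SE, interval 0.02 to 1.78). Here the lowest Ta3 library and the highest Ta0 library nearly met, and without Ta3 replicate 2 the difference was 0.55.

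Lmf2, related to a factor for the maturation of lipases, was at 3.57, 5.19 and 3.80 FPKM on Ta0 and 7.88, 11.4 and 7.03 on Ta3, a log2 difference of 0.90 ± 0.25 (SE, interval 0.34 to 1.47). Map1s encodes a microtubule-associated protein and was at 4.05, 4.62 and 3.15 FPKM on Ta0 and 8.34, 12.1 and 5.18 on Ta3, with a log2 difference of 0.89 ± 0.32 (SE, interval 0.16 to 1.63). For both genes Ta3 replicate 2 was the highest library and Ta3 replicate 3 the lowest of its group. Zfp703, a zinc finger regulator of transcription, was at 4.55, 5.16 and 3.79 FPKM on Ta0 and 8.84, 14.5 and 5.70 on Ta3, with a log2 difference of 0.88 ± 0.37 (SE, interval 0.04 to 1.72), or 0.57 without Ta3 replicate 2. Cherp, a nuclear and endoplasmic reticulum protein linked to calcium handling, was at 3.89, 4.89 and 3.46 FPKM on Ta0 and 7.60, 10.5 and 5.58 on Ta3, with a log2 difference of 0.78 ± 0.32 (SE, interval 0.05 to 1.51).

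**Figure D2:**
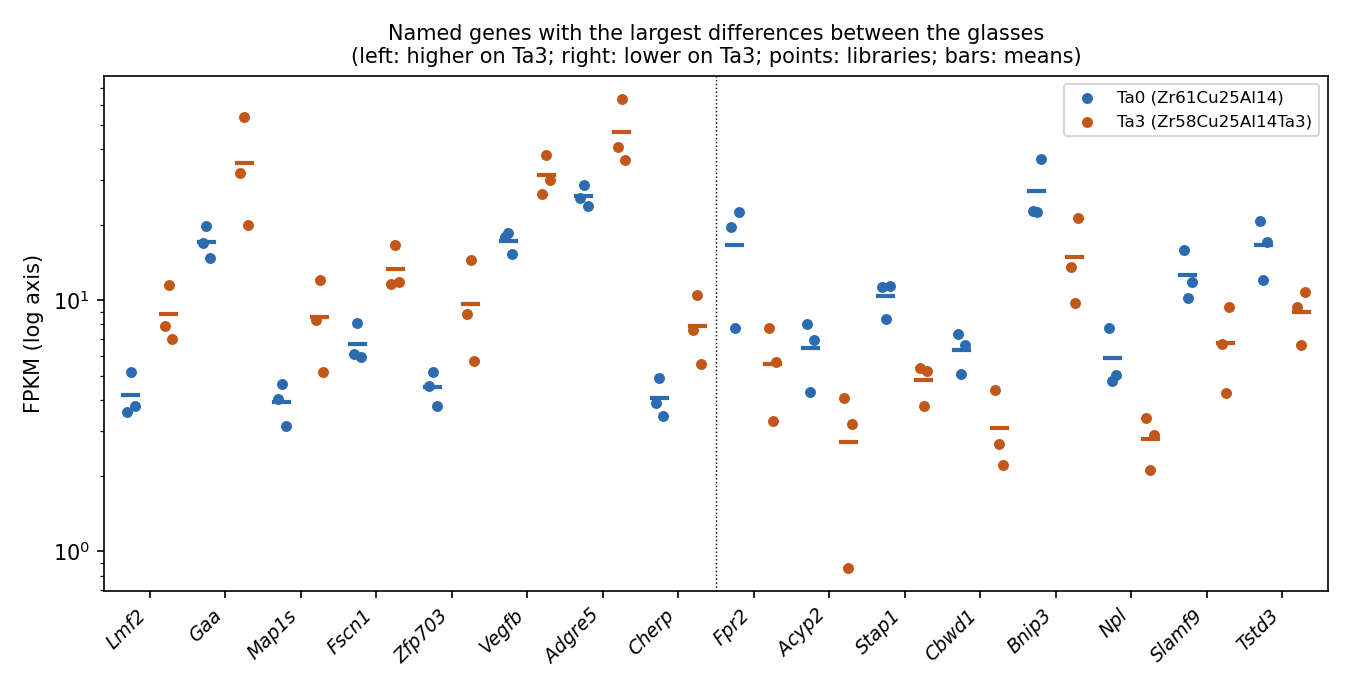
FPKM on a log axis of the 16 genes with the largest differences by the rule, with a point per library and a bar at the mean of each glass. The 3 libraries of one glass lie apart from the 3 of the other for each gene because the rule asked for it, and Ta3 replicate 2 and 3 are often the extremes of their group.

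The 8 genes lower on Ta3 were Fpr2, Stap1, Slamf9, Bnip3, Npl, Acyp2, Cbwd1 and Tstd3. Fpr2, a receptor for formyl peptides of bacteria and mitochondria, was at 19.6, 7.78 and 22.3 FPKM on Ta0 and 7.76, 3.29 and 5.68 on Ta3. Its log2 difference was -1.36 ± 0.50 (SE, interval -2.51 to -0.21), and the lowest Ta0 library stood only just above the highest Ta3 library. On cpTi it was at 152, 239 and 79.1 FPKM, far above both glasses. Stap1 encodes an adaptor protein of receptor signalling. It was at 11.3, 8.43 and 11.3 FPKM on Ta0 and 5.35, 3.77 and 5.23 on Ta3, a log2 difference of -0.97 ± 0.18 (SE, interval -1.39 to -0.56), with no Ta3 library within 3 FPKM of a Ta0 library. Stap1 had the smallest p of these 16 genes, and its cpTi libraries, at 7.48, 6.47 and 5.96 FPKM, lay between the glasses. Slamf9, a surface receptor of the SLAM family, was at 15.9, 10.2 and 11.8 FPKM on Ta0 and 6.72, 4.27 and 9.35 on Ta3, with a log2 difference of -0.84 ± 0.30 (SE, interval -1.53 to -0.15).

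Bnip3 marks mitochondria for autophagy and is induced by low oxygen. It was at 22.7, 22.5 and 36.5 FPKM on Ta0 and 13.6, 9.76 and 21.1 on Ta3, with a log2 difference of -0.86 ± 0.32 (SE, interval -1.59 to -0.14). Npl, an enzyme of sialic acid breakdown, was at 7.78, 4.76 and 5.04 FPKM on Ta0 and 3.40, 2.10 and 2.90 on Ta3, with a log2 difference of -0.84 ± 0.26 (SE, interval -1.42 to -0.26). Acyp2, an acylphosphatase, was at 8.04, 4.31 and 6.95 FPKM on Ta0 and 4.08, 0.859 and 3.20 on Ta3, with a log2 difference of -1.09 ± 0.40 (SE, interval -2.005 to -0.17), with Ta3 replicate 2 far below the rest, and without that library it was -0.65. Cbwd1 belongs to a family of GTPases that hand zinc to another protein. It was at 7.31, 5.09 and 6.64 FPKM on Ta0 and 4.40, 2.67 and 2.21 on Ta3, with a log2 difference of -0.87 ± 0.28 (SE, interval -1.52 to -0.22). Tstd3, with a domain of sulfur-transferring enzymes, was at 20.7, 12.1 and 17.1 FPKM on Ta0 and 9.37, 6.66 and 10.8 on Ta3, with a log2 difference of -0.82 ± 0.29 (SE, interval -1.49 to -0.15). With each library brought to a common FPKM total, the log2 difference nearest to 0 among them was -0.39, for Tstd3.

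Gene lists were described by their members' counts and medians beside those of all tested genes, where 4893 differences were above 0 and 5965 below. No list had a gene with an adjusted p under 0.05. The lists, like the genes, were chosen with earlier results of these data known. When each library was brought to a common FPKM total, the median of all genes moved from -0.04 to 0.33 and every list median shifted upward. The RNA gene Gm23935 held 21.4%, 20.06% and 0.16% of the summed FPKM on Ta0 and 0.37%, 3.85% and 5.49% on Ta3. With it left out of the total, a setting chosen after seeing the data, the median of all genes was 0.19. Directions and counts above or below 0 are those of the deposited scaling. Where the log2 difference of a named gene changed sign at a common FPKM total, that value stands beside it. For these genes the sign turned in 1 (as for Tnf) to 7 (for Mt1) of 22 alternative settings.

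Genes for adhesion were mostly above 0. Of 12 integrins, 11 were higher on Ta3 and the median log2 difference was 0.39, but none had an unadjusted p under 0.05 and none had groups apart. Itga5, the alpha subunit of the fibronectin receptor, was at 12.9, 18.1 and 13.7 FPKM on Ta0 and 23.5, 34.5 and 15.97 on Ta3, with a log2 difference of 0.64 ± 0.32 (SE, interval -0.09 to 1.37). Itgb1, its beta partner, was at 143, 156 and 172 FPKM on Ta0 and 140.3, 161 and 138 on Ta3, with a log2 difference of -0.10 ± 0.22 (SE, interval -0.61 to 0.41, and 0.36 at a common FPKM total), and the interval lay within a doubling or a halving. Itgb3, the beta subunit of the vitronectin receptor, was at 2.80, 4.45 and 3.73 FPKM on Ta0 and 6.14, 9.22 and 2.17 on Ta3, with a log2 difference of 0.41 ± 0.40 (SE, interval -0.49 to 1.32). Without Ta3 replicate 2 the difference was 0.37 for Itga5 and 0.04 for Itgb3. For both genes the gap came from Ta3 replicates 1 and 2, while Ta3 replicate 3 lay among the Ta0 values or below them. Focal adhesion and actin genes showed 24 of 31 above 0, with a median of 0.29. Zyx, encoding zyxin of focal adhesions, was at 11.8, 15.97 and 11.6 FPKM on Ta0 and 21.7, 34.9 and 13.3 on Ta3, with a log2 difference of 0.70 ± 0.37 (SE, interval -0.15 to 1.54), or 0.37 without Ta3 replicate 2. With the length slope of each library as a covariate, the medians were 0.07 for both lists.

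All 19 tested genes of TGF-beta signalling and matrix were above 0, with a median of 0.34, and none had an unadjusted p under 0.05. Tgfb1, the growth factor itself, was at 38.2, 41.1 and 27.6 FPKM on Ta0 and 57.3, 89.5 and 33.5 on Ta3, with a log2 difference of 0.65 ± 0.39 (SE, interval -0.24 to 1.54), or 0.31 without Ta3 replicate 2. Col1a1, a collagen chain of matrix-forming cells chosen after its values were seen, was at 5.14, 6.598 and 4.11 FPKM on Ta0 and 16.1, 18.7 and 6.11 on Ta3, with a log2 difference of 1.11 ± 0.64 (SE, interval -0.34 to 2.57). Ta3 replicate 3 lay within the Ta0 range for both genes. The sum of the 10 fibroblast and stromal markers was 37.6 to 40.7 FPKM on Ta0, 47.9 to 55.1 on Ta3 and 41.2 to 65.6 on cpTi. The sum did not overlap between the glasses, and the cpTi range held the whole Ta3 range. Among single genes the share in that direction was 4.10%, which is no measure for a sum. Of the 6 markers tested singly, 5 were above 0 and 1 below, from -0.35 to 1.11, the latter for Col1a1. None of them had groups apart or an unadjusted p under 0.05 by limma. Of the 10 markers, 4 (Pdgfrb, Lum, Postn and Cxcl12) were under 1 FPKM in all 6 glass libraries. The part of such cells in the result was not tested. In bulk RNA, more cells of a type and more RNA per cell cannot be told apart. With the length slope as a covariate, the median of the TGF-beta list was 0.09.

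Among the signals that macrophages receive, 14 of 19 pattern receptor genes were below 0, with a median of -0.34 (0.12 at a common FPKM total). Fpr2 and Tlr1, 2 of the 19, were lower at an unadjusted p under 0.05, against 2.26% of all genes. Tlr1, a receptor for bacterial lipopeptides, was at 8.49, 8.75 and 9.49 FPKM on Ta0 and 6.14, 7.59 and 4.62 on Ta3, with a log2 difference of -0.50 ± 0.21 (SE, interval -0.98 to -0.01). The Ta3 libraries lay wholly below the Ta0 libraries for 4 genes of the list, Fpr2, Tlr1, Tlr7 and Myd88, against 4.87% of all genes, and wholly above them for Nod1, against 4.10%. Of these, Tlr7, Myd88 and Nod1 were named after their values were seen. Tlr7, a sensor of single-stranded RNA, was at 28.1, 27.8 and 30.3 FPKM on Ta0 and 23.1, 25.5 and 19.1 on Ta3, with a log2 difference of -0.35 ± 0.18 (SE, interval -0.75 to 0.06, and 0.11 at a common FPKM total). Nod1, a cytosolic sensor of bacterial cell wall fragments, was at 1.34, 1.74 and 1.51 FPKM on Ta0 and 2.59, 3.54 and 2.26 on Ta3, with a log2 difference of 0.57 ± 0.25 (SE, interval -0.01 to 1.16). Fc and complement receptors had 12 of 16 below 0, a median of -0.24 (0.20 at a common FPKM total) and no gene with an unadjusted p under 0.05. With the length slope as a covariate, the medians were -0.03 for this list and -0.24 for the pattern receptors.

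No gene on the list of inflammatory cytokines and mediators passed the test between the glasses. Of 18 tested, 15 were below 0, with a median of -0.30 (0.09 at a common FPKM total, -0.09 with the length slope as a covariate), and none had an unadjusted p under 0.05. Of the 14 that reached 1 FPKM in 3 glass libraries, 7 had an interval within a doubling or a halving, against 63.8% of all tested genes. Il1b, Cxcl3, Nos2 and Ptgs2 passed the filter on low values only through the cpTi libraries, and at such levels the pseudocount of 1 narrows the interval. Tnf, the tumour necrosis factor gene, was at 9.28, 8.31 and 10.2 FPKM on Ta0 and 6.14, 7.83 and 7.99 on Ta3, and at 30.6, 33.5 and 24.8 FPKM on cpTi. Its log2 difference between the glasses was -0.30 ± 0.18 (SE, interval -0.71 to 0.10, and 0.11 at a common FPKM total). Il1a, the interleukin 1 alpha gene, was at 17.3, 17.1 and 18.3 FPKM on Ta0 and 12.9, 11.6 and 14.9 on Ta3, with a log2 difference of -0.40 ± 0.24 (SE, interval -0.95 to 0.15, and 0.03 at a common FPKM total). The Tnf and Il1a values were lower in each Ta3 library, and they were the 2 of the 18 genes with groups apart, against 4.87% of all genes wholly lower. Il1b, the interleukin 1 beta gene, was at 1.27, 0.912 and 1.22 FPKM on Ta0 and 0.936, 0.292 and 0.697 on Ta3, with a log2 difference of -0.39 ± 0.24 (SE, interval -0.93 to 0.15). Acod1, which makes the antimicrobial metabolite itaconate, was at 7.94, 8.12 and 12.5 FPKM on Ta0 and 9.45, 8.87 and 9.16 on Ta3. The Ta3 values sat inside the Ta0 range, with a log2 difference of -0.02 ± 0.21 (SE, interval -0.51 to 0.46, and 0.38 at a common FPKM total). Cxcl2 and Cxcl3 attract neutrophils. Cxcl2 was at 2.50, 2.70 and 4.14 FPKM on Ta0 and 2.48, 1.73 and 3.41 on Ta3, with a log2 difference of -0.22 ± 0.24 (SE, interval -0.77 to 0.33, and 0.07 at a common FPKM total). Cxcl3 was at 0.409, 0.617 and 1.05 FPKM on Ta0 and 0.820, 0.451 and 1.93 on Ta3, with a log2 difference of 0.24 ± 0.30 (SE, interval -0.45 to 0.93). Nos2, the inducible nitric oxide synthase, was at 0.175 FPKM or less in every glass library, with a log2 difference of -0.07 ± 0.14 (SE, interval -0.39 to 0.24). Il6 and Il10 did not pass the filter. Il6 was at 0.148 FPKM or less in all 6 glass libraries. Il10 was at 3.59 FPKM in Ta3 replicate 3 and at 0.549 FPKM or less in the other 5.

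Alternative activation had no common direction, with 7 of 13 above 0 and 6 below. Arg1, the arginase that competes with Nos2 for arginine, was at 489, 497 and 741 FPKM on Ta0 and 395, 117 and 372 on Ta3, wholly lower on Ta3, with a log2 difference of -1.13 ± 0.55 (SE, interval -2.37 to 0.12). Ta3 replicate 2 was far below the other libraries, and without it the log2 difference was -0.56. Mrc1, the mannose receptor, was at 9.44, 10.7 and 10.7 FPKM on Ta0 and 14.5, 14.97 and 7.14 on Ta3, with a log2 difference of 0.17 ± 0.33 (SE, interval -0.59 to 0.93). The 24 interferon response genes had a median of -0.09 (0.30 at a common FPKM total). Ifit3, an interferon-induced antiviral gene, was at 6.82, 6.15 and 8.45 FPKM on Ta0 and 4.81, 3.69 and 6.04 on Ta3, with a log2 difference of -0.49 ± 0.25 (SE, interval -1.06 to 0.09).

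**Figure D3:**
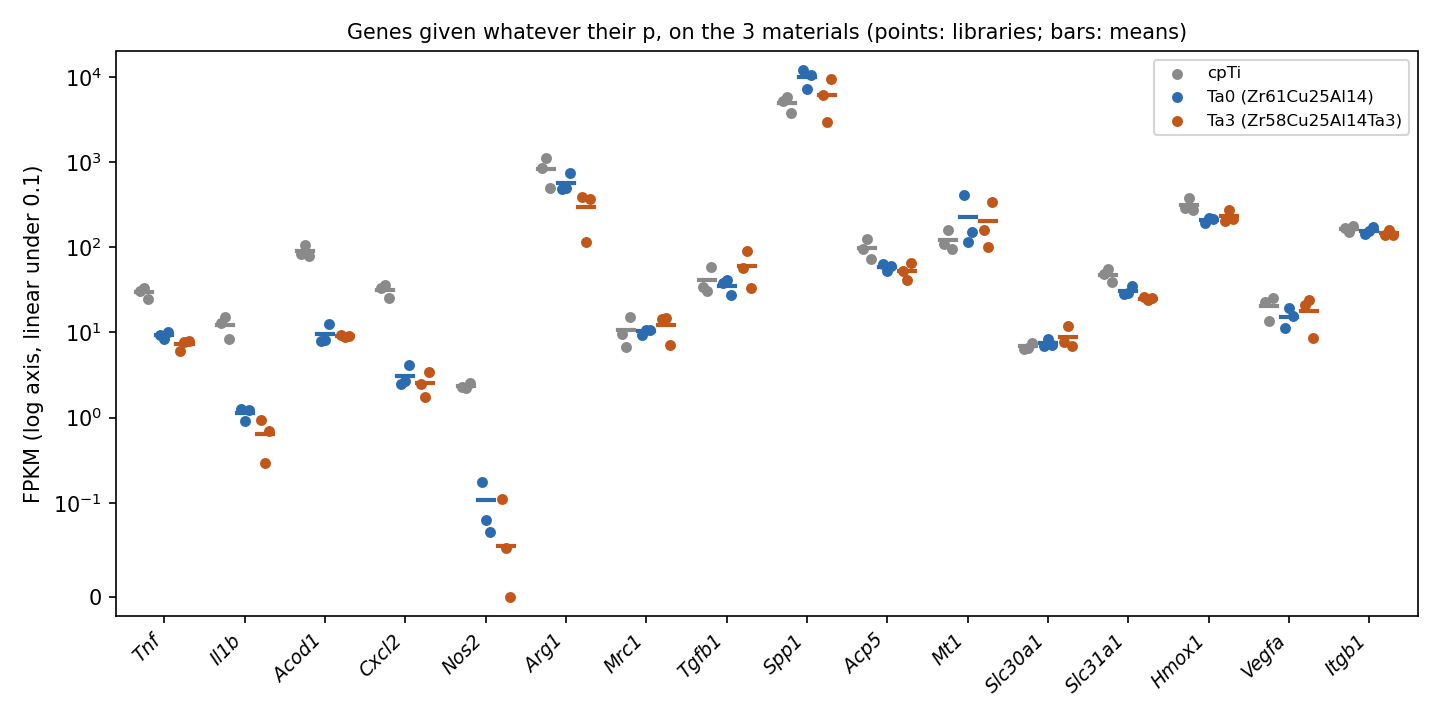
FPKM of 16 genes of inflammation, alternative activation, bone resorption, metal handling and adhesion on the 3 materials, on a log axis that is linear under 0.1, with a point per library and a bar at the mean. The Tnf, Il1b, Acod1, Cxcl2 and Nos2 values lie near each other on both glasses and higher on cpTi, for example 7.94 to 12.5 FPKM on the glasses and 78.6 to 107 on cpTi for Acod1.

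Both glasses hold copper and aluminium, and genes that bind or move metals were compared between them. Of 22 tested, 6 were above 0 and 16 below, with a median of -0.14 (0.24 at a common FPKM total), and none had an unadjusted p under 0.05. Mt1, a metallothionein that binds zinc and copper, was at 412, 117 and 150.5 FPKM on Ta0 and 162, 102 and 341 on Ta3, with a log2 difference of -0.12 ± 0.57 (SE, interval -1.43 to 1.19, and 0.34 at a common FPKM total). Its highest libraries were Ta0 replicate 1 and Ta3 replicate 3, the pair at the low end of the first component. Mtf1, the zinc sensor that drives metallothionein genes, was at 1.82, 1.69 and 1.47 FPKM on Ta0 and 2.07, 2.56 and 2.30 on Ta3, with a log2 difference of 0.31 ± 0.14 (SE, interval -0.01 to 0.64), and was higher in each Ta3 library. Slc31a1, the main copper importer, was at 28.03, 28.9 and 34.9 FPKM on Ta0 and 26.1, 23.9 and 25.1 on Ta3, with a log2 difference of -0.27 ± 0.19 (SE, interval -0.72 to 0.17, and 0.17 at a common FPKM total), and was lower in each Ta3 library. Mtf1 and Slc31a1 were each 1 of 22 genes with groups apart in their direction, near the share of all genes, 4.10% wholly higher and 4.87% wholly lower. Slc30a1, a zinc exporter, was at 6.995, 8.42 and 7.21 FPKM on Ta0 and 7.80, 11.9 and 6.91 on Ta3, with a log2 difference of 0.18 ± 0.20 (SE, interval -0.28 to 0.64). The NRF2 antioxidant genes were 13 above 0 and 8 below, and 17 of 21 had an interval within a doubling or a halving. Hmox1, which degrades heme, was at 194, 224 and 216 FPKM on Ta0 and 202, 275 and 217 on Ta3, with a log2 difference of 0.12 ± 0.27 (SE, interval -0.50 to 0.74). Among 16 iron genes, 9 were above 0, and Hfe, a regulator of iron uptake, was at 6.23, 8.77 and 8.79 FPKM on Ta0 and 6.06, 5.83 and 5.79 on Ta3, with a log2 difference of -0.36 ± 0.17 (SE, interval -0.74 to 0.02, and 0.04 at a common FPKM total).

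Of 22 tested cholesterol synthesis genes, 4 had an unadjusted p under 0.05, all higher on Ta3 and among them Srebf2, Dhcr7 and Lss, against 2.00% of all genes. Srebf2, the transcription factor that switches on cholesterol synthesis and uptake, was at 10.2, 12.3 and 8.72 FPKM on Ta0 and 15.8, 21.4 and 13.9 on Ta3, with a log2 difference of 0.65 ± 0.24 (SE, interval 0.11 to 1.19). Dhcr7, a late enzyme of the pathway, was at 3.46, 4.63 and 3.42 FPKM on Ta0 and 5.18, 8.25 and 5.75 on Ta3, with a log2 difference of 0.60 ± 0.23 (SE, interval 0.07 to 1.12). Each Ta3 library was above each Ta0 library for both. The median of the list was 0.10, 7 genes were below 0, and Cyp51, an enzyme of the pathway chosen after its values were seen, was wholly lower on Ta3 at 14.6, 13.2 and 15.3 FPKM on Ta0 and 11.6, 12.6 and 10.9 on Ta3, with a log2 difference of -0.27 ± 0.14 (SE, interval -0.60 to 0.05, and 0.16 at a common FPKM total). Of 22 LXR target and lipid handling genes, 14 were above 0. Fasn, the fatty acid synthase, was at 1.38, 1.18 and 0.894 FPKM on Ta0 and 2.79, 3.17 and 2.44 on Ta3, with a log2 difference of 0.82 ± 0.26 (SE, interval 0.22 to 1.43). It was the only gene of this list with an unadjusted p under 0.05, against 2.00% of all genes higher on Ta3 at that p.

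Single genes of degradation, antigen presentation, apoptosis and transcription were described next. Mmp12, the macrophage elastase, was at 499, 541 and 599.6 FPKM on Ta0 and 306, 225 and 432 on Ta3, wholly lower on Ta3, with a log2 difference of -0.81 ± 0.36 (SE, interval -1.63 to 0.00). Mmp27, another matrix metalloproteinase, was at 8.17, 7.90 and 9.28 FPKM on Ta0 and 6.02, 4.78 and 5.23 on Ta3, with a log2 difference of -0.58 ± 0.23 (SE, interval -1.09 to -0.06). The 19 protease and inhibitor genes split into 10 above and 9 below 0. Tap2, a subunit of the transporter that moves peptides for MHC class I into the endoplasmic reticulum, was at 5.65, 6.58 and 4.90 FPKM on Ta0 and 8.94, 12.97 and 8.36 on Ta3, with a log2 difference of 0.71 ± 0.20 (SE, interval 0.26 to 1.15). Its partner Tap1 was at 3.82, 6.02 and 5.35 FPKM on Ta0 and 7.40, 11.1 and 5.59 on Ta3, with a log2 difference of 0.55 ± 0.24 (SE, interval -0.01 to 1.099). The 19 class I genes had a median of -0.08 (0.38 at a common FPKM total), and 8 of 10 class II genes were below 0, with a median of -0.26 (0.16 at a common FPKM total). With the length slope as a covariate, the medians were 0.16 for class I and 0.01 for class II. Casp8, a protease that starts death receptor apoptosis, was at 24.7, 25.98 and 26.9 FPKM on Ta0 and 20.2, 16.4 and 18.2 on Ta3, with a log2 difference of -0.48 ± 0.17 (SE, interval -0.87 to -0.09). Fas, a death receptor, was at 9.97, 4.93 and 5.84 FPKM on Ta0 and 3.69, 2.47 and 5.17 on Ta3, with a log2 difference of -0.72 ± 0.31 (SE, interval -1.42 to -0.01). Klf2, a transcription factor that restrains myeloid activation, was at 6.14, 4.68 and 4.47 FPKM on Ta0 and 8.09, 10.97 and 8.70 on Ta3, with a log2 difference of 0.75 ± 0.19 (SE, interval 0.31 to 1.19), and was higher in each Ta3 library. Of these, Mmp27, Tap2, Casp8, Fas and Klf2 had an unadjusted p under 0.05 and Mmp12 and Tap1 did not. They were 1 of 19 protease and inhibitor genes, 1 of 19 class I genes, 2 of 22 p53 target and apoptosis genes and 1 of 18 immediate early genes. The share among all tested genes was 4.25%.

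Genes of bone resorption and bone growth were compared next. Spp1, encoding osteopontin, was among the most abundant RNAs, at 11990, 7239 and 10660 FPKM on Ta0 and 6150, 2957 and 9472 on Ta3, with a log2 difference of -0.81 ± 0.68 (SE, interval -2.37 to 0.75), or -0.35 without Ta3 replicate 2. Acp5, the tartrate-resistant phosphatase of osteoclasts, was at 64.6, 52.7 and 60.5 FPKM on Ta0 and 52.4, 41.4 and 66.1 on Ta3, with a log2 difference of -0.17 ± 0.27 (SE, interval -0.79 to 0.45, and 0.28 at a common FPKM total). Both overlapped between the glasses. The 15 osteoclast and cell fusion genes were 6 above and 9 below 0. Among 15 osteogenic and angiogenic factors, Vegfb was the only gene with an unadjusted p under 0.05, against 2.00% of all genes higher on Ta3 at that p. Vegfa, the main growth factor for blood vessels, was at 11.4, 19.2 and 15.6 FPKM on Ta0 and 20.8, 23.8 and 8.64 on Ta3, with a log2 difference of 0.11 ± 0.39 (SE, interval -0.79 to 1.01). Bmp2, a growth factor that induces bone, was at 1.08, 1.22 and 1.41 FPKM on Ta0 and 1.81, 2.03 and 0 on Ta3, with a log2 difference of -0.13 ± 0.40 (SE, interval -1.04 to 0.79, and 0.28 at a common FPKM total). Osm, a cytokine that acts on osteoblasts, was at 1.84, 3.54 and 3.10 FPKM on Ta0 and 2.43, 3.10 and 2.16 on Ta3, with a log2 difference of -0.08 ± 0.20 (SE, interval -0.54 to 0.38, and 0.23 at a common FPKM total). For these 3 genes the range within a glass was wider than the difference between the means.

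**Figure D4:**
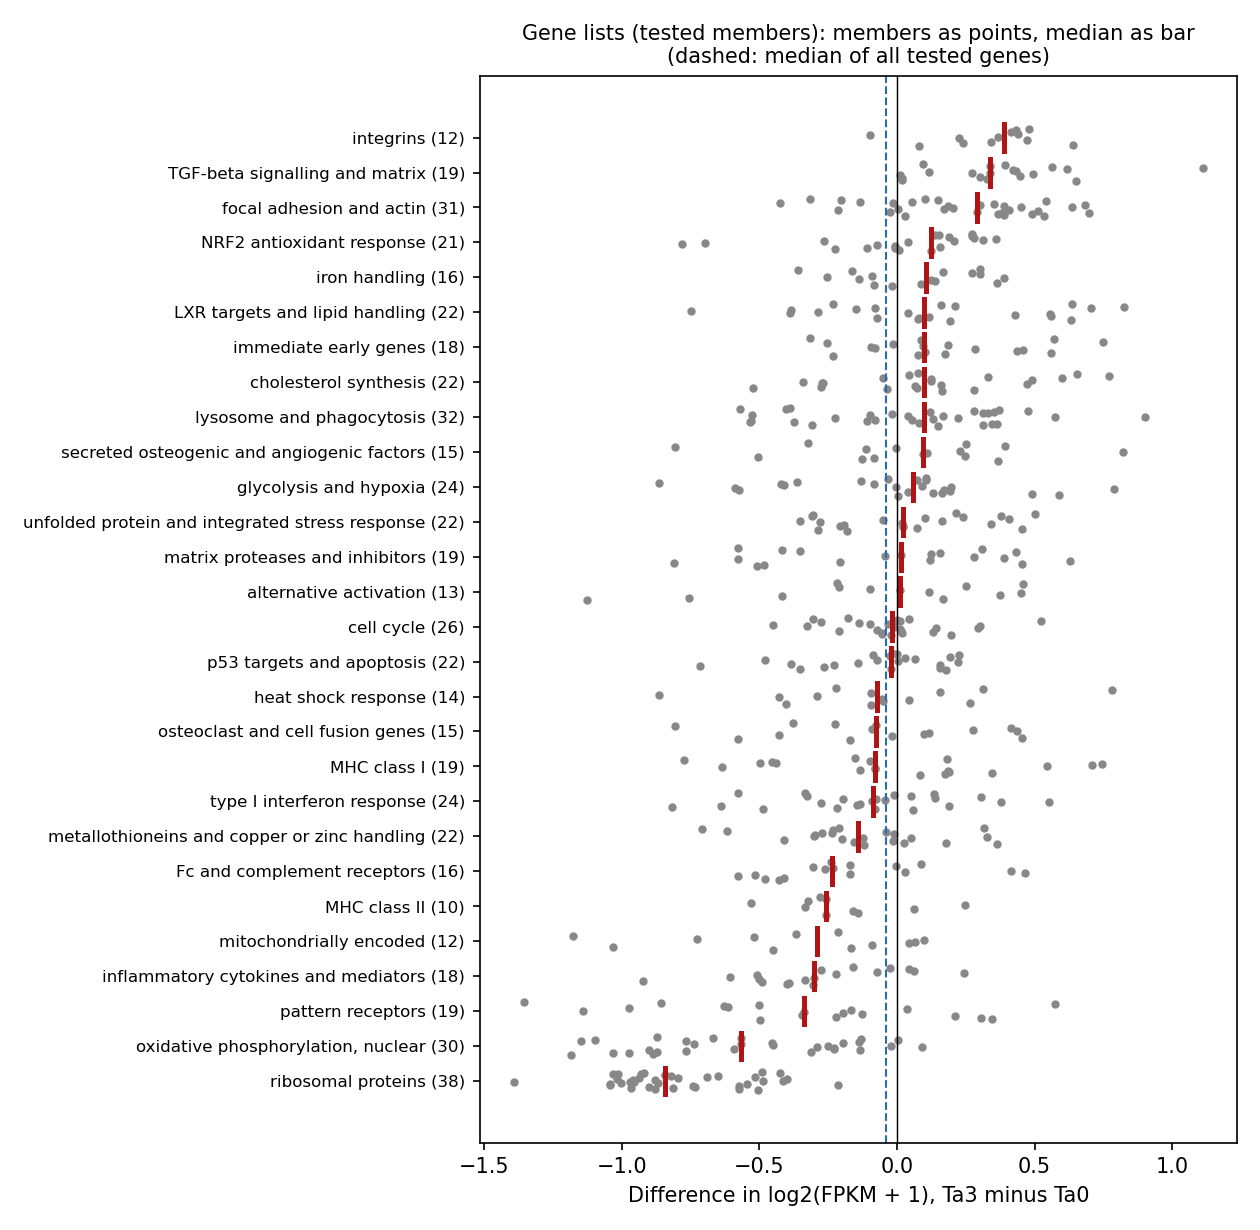
Differences in log2(FPKM + 1), Ta3 minus Ta0, for the tested members of 28 gene lists (points), with the median of each list (bar) and of all tested genes (dashed line at -0.04). Ribosomal proteins lie lowest, at a median of -0.84, and integrins highest, at 0.39, and the members of most lists lie on both sides of 0.

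The lists farthest from 0 were those of the protein and energy machinery. All 38 ribosomal protein genes of the list, which need not hold the whole family, were below 0, with a median of -0.84. Their log2 differences ran from -1.39 to -0.21, yet none had an unadjusted p under 0.05 or groups apart. Rpl5, of the large subunit, was at 1067, 296 and 565 FPKM on Ta0 and 379, 78.6 and 806 on Ta3, with a log2 difference of -0.96 ± 0.85 (SE, interval -2.91 to 0.99), or -0.03 without Ta3 replicate 2. The spread within a glass was wider than the gap between the means, and both the lowest and the second highest library were Ta3 libraries. As a share of all reads, the 38 listed genes took 6.76 ± 2.97% on Ta0 and 5.42 ± 3.86% on Ta3 (SD, n = 3), with an exact two-sided permutation p of 0.7, where 0.1 is the smallest that 3 against 3 allows. The mean share was higher on Ta3, by 0.633 percentage points without Ta3 replicate 2 and by 0.301 without Ta0 replicate 1. The median of the list was 0.21 without Ta3 replicate 2 and 0.07 when each library's length slope entered as a covariate. Nuclear genes of oxidative phosphorylation had 28 of 30 below 0 and a median of -0.57 (0.04 with the length slope, 0.09 without Ta3 replicate 2). Uqcrc2, of complex III, was at 59.5, 48.1 and 60.04 FPKM on Ta0 and 38.4, 29.4 and 58.5 on Ta3, with a log2 difference of -0.45 ± 0.30 (SE, interval -1.13 to 0.24, and 0.0024 at a common FPKM total).

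Mitochondrially encoded genes supply core subunits of the respiratory chain. Of 12 tested, 9 were below 0, with a median of -0.29 (0.15 at a common FPKM total), and 5 had Ta3 libraries wholly below Ta0, namely mt-Co2, mt-Co3, mt-Nd1, mt-Co1 and mt-Cytb, against 4.87% of all genes. mt-Co2, a subunit of cytochrome oxidase, was at 54.6, 38.8 and 40.4 FPKM on Ta0 and 28.8, 34.6 and 28.4 on Ta3, with a log2 difference of -0.52 ± 0.22 (SE, interval -1.02 to -0.02). mt-Nd1, of complex I and chosen after its values were seen, was at 1878, 1446 and 1373 FPKM on Ta0 and 1171, 1271 and 983 on Ta3, with a log2 difference of -0.45 ± 0.40 (SE, interval -1.36 to 0.46, and 0.01 at a common FPKM total). The mitochondrially encoded share of reads was 1.25 ± 0.163% on Ta0 and 0.951 ± 0.187% on Ta3 (SD, n = 3), with an exact two-sided permutation p of 0.2. As a share of summed FPKM the means differed by 0.0068 percentage points, and the cpTi share of reads was 1.73 ± 0.351% (SD, n = 3). With the length slope as a covariate the median of this list was -0.34.

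The largest differences lay mostly in short genes. The 187 genes lower on Ta3 by more than 1 on the log2 scale had a median length of 523 bases and the 21 genes higher by more than 1 had a median length of 132 bases, against 3766.5 for all tested genes. Processed pseudogenes, which are copies of messenger RNAs written back into the genome, had an unadjusted p under 0.05 in 53 of 665 (7.97%), and protein-coding genes in 353 of 9571 (3.69%). Of the 30 genes with the smallest p, 13 were processed pseudogenes, and 12 of those matched the transcript of a protein-coding gene at 94.04% to 100% identity. Within a matched stretch, reads can be told apart only at bases that differ, so these values are uncertain. The stretch did not always span the pseudogene, as with 235 aligned bases for Gm15694, which is 283 bases long. Whether the matched gene is the source of the pseudogene was not tested.

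The pseudogene Gm12854 had the smallest p of all genes and is shown beside the coding sequence of S100a11, a calcium-binding protein of the S100 family, because they differ so little. S100a11 is a spliced gene on chromosome 3 (chr3:93520488-93526287, plus strand) and Gm12854 a single block on chromosome 4 (chr4:116067268-116067564, plus strand, GRCm38). Both are given 5′ to 3′ from the start codon of S100a11 through its stop codon, with the bases that differ in capitals.
S100a11: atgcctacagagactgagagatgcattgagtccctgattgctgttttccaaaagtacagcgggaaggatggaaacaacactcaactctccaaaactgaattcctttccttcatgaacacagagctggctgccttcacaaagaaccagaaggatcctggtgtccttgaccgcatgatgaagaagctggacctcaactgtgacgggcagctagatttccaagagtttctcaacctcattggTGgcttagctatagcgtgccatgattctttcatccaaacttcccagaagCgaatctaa
Gm12854: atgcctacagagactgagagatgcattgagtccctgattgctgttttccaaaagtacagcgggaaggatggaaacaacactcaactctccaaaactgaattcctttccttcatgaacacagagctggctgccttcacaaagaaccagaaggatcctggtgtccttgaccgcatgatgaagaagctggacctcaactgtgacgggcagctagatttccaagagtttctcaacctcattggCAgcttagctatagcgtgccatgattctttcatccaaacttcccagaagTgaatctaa
The 297 bases matched at 98.99%, with 3 differences, T240C, G241A and C289T (S100a11 base first, positions from 1 at the A of its start codon).

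Gm12854 was at 19.3, 26.5 and 18.7 FPKM on Ta0 and 10.02, 7.80 and 7.58 on Ta3, a log2 difference of -1.24 ± 0.20 (SE, interval -1.69 to -0.79), and every Ta3 library was lower than every Ta0 library. S100a11 itself was at 665, 558 and 512 FPKM on Ta0 and 455, 472 and 532 on Ta3, with overlapping groups and a log2 difference of -0.24 ± 0.29 (SE, interval -0.90 to 0.41, and 0.22 at a common FPKM total). The pseudogene stood at 2.90%, 4.74% and 3.66% of S100a11 on Ta0 and at 2.20%, 1.65% and 1.43% on Ta3, with 3.27%, 4.08% and 3.60% on cpTi. Gm6180, which matched the cofilin gene Cfl1, was at 12.4, 12.04 and 12.9 FPKM on Ta0 and 7.06, 5.49 and 6.78 on Ta3, with a log2 difference of -0.86 ± 0.15 (SE, interval -1.21 to -0.51). Gm3756, which matched the alpha tubulin gene Tuba1b, was at 4.39, 4.65 and 5.60 FPKM on Ta0 and 1.40, 1.64 and 2.42 on Ta3, with a log2 difference of -1.07 ± 0.20 (SE, interval -1.52 to -0.62). The glasses did not overlap for either pseudogene, whereas they overlapped for both matched genes. The matched genes Cfl1, at 1647, 937 and 1080 FPKM on Ta0 and 901, 629 and 1217 on Ta3, and Tuba1b, at 161, 119.6 and 132 FPKM on Ta0 and 124, 129 and 185 on Ta3, had log2 differences of -0.42 ± 0.44 (SE, interval -1.42 to 0.57, and 0.04 at a common FPKM total) and 0.08 ± 0.25 (SE, interval -0.50 to 0.66).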

How the data were processed

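Polyadenylated RNA of macrophages on cpTi, Ta0 and Ta3 was sequenced, 3 libraries per material. The authors deposited a table of FPKM for 54532 genes. Per the submitters' processing notes, HISAT2 2.0.5 and featureCounts 1.5.0-p3 were used on GRCm38, as were DESeq2 1.20.0, fastp and CASAVA 1.8, with no role given; no strand setting is given in the sources used here, so antisense and overlapping genes cannot be told apart. FPKM times gene length came out as whole reads (100.0% of values within 0.05 reads), 15517877 to 18689963 per library.

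Genes that reached 1 FPKM in 3 or more of the 9 libraries were taken as log2(FPKM + 1) and fitted in limma 3.58.1 (R 4.3.3) as 3 group means with a mean-variance trend. Tests were two-sided, with Benjamini-Hochberg adjustment over 10858 genes and a threshold of 0.05. Shares of reads were compared by exact permutation tests. Values per library are in replicate order.

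Besides the 8 genes per direction, the rule for named genes took the 2 members with the smallest p of each of 28 gene lists and a fixed set of inflammatory, metal, bone and adhesion genes, and the text gives most of them. A few genes are not reported here by name, though the list counts include them. Other genes were chosen after their values were seen, among them Adgre1, Cd68, S100a8, mt-Nd1 and the pseudogenes with their matched genes. Not all of these are marked as such where they are given. The 11 marker lists, the gene lists and the comparison were chosen with earlier results of these data known. Pseudogenes were matched with BLAST 2.17.0 to GENCODE M21 transcripts of GRCm38, the source of both printed sequences. The alternatives were other pseudocounts, filters, scalings, variance models, weights, covariates and left-out libraries.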

Additional observations from a re-analysis of the deposited data

How the results depend on the processing

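The count of genes at an adjusted p under 0.05 was 0 in every setting except 1. With a weight per library in limma it was 4728 (2403 higher and 2325 lower on Ta3), with 5758 genes at an unadjusted p under 0.05, but there a single library carried 84.8% of the weight of Ta0, 95.3% of Ta3 and 93.3% of cpTi. The 462 genes at an unadjusted p under 0.05 became 1231 with the length slope as a covariate, 986 with no filter on low values, 829 without Ta0 replicate 1 and Ta3 replicate 3 together, 56 at a common FPKM total, and 188 to 2035 when a library was left out in turn. At a common total without the RNA gene Gm23935, a setting chosen after seeing the data, it was 81. The 6927 genes bounded within a doubling or a halving became 20308 with no filter, 1392 at a common FPKM total and 2669 at that total without Gm23935. The cause of these shifts was not tested. The mitochondrially encoded share differed by 0.0068 percentage points as a share of summed FPKM, against -0.298 as a share of reads, and the ribosomal share by -3.22 to 0.633 when a library was left out.

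The labels number the replicates alike in each material. Deviations of same-numbered Ta3 and Ta0 libraries correlated at 0.146, 0.848 and -0.162 over genes. Such correlations cannot tell whether a number marks a shared mouse or batch. With the replicate block, 293 genes had an unadjusted p under 0.05 and none an adjusted p under 0.05, and with the block and the length slope 1272 did, with a smallest adjusted p of 0.0995 by limma. Low expression and the 3 libraries per glass limit what could be seen, and any change within a gene's interval remains compatible with these data.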

Other observations

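Stress, cycling and degradation genes, not described above, gave no gene with an adjusted p under 0.05 by limma either. Among 14 heat shock genes, 9 were below 0, and the 2 with the smallest p pointed apart. Hsp90aa1, an abundant cytosolic chaperone, was at 80.6, 74.8 and 91.2 FPKM on Ta0 and 65.4, 61.9 and 58.1 on Ta3, lower in each Ta3 library, with a log2 difference of -0.40 ± 0.19 (SE, interval -0.84 to 0.03, and 0.06 at a common FPKM total). Bag3, a co-chaperone of selective autophagy, was at 9.29, 11.2 and 9.86 FPKM on Ta0 and 18.2, 30.2 and 10.5 on Ta3, with a log2 difference of 0.78 ± 0.40 (SE, interval -0.13 to 1.69). Among 22 genes of the unfolded protein and integrated stress response, 13 were above 0. Chac1, a glutathione-degrading target of that response, was at 2.76, 4.29 and 2.88 FPKM on Ta0 and 4.40, 5.21 and 4.37 on Ta3, higher in each Ta3 library, with a log2 difference of 0.41 ± 0.17 (SE, interval 0.01 to 0.81). It was the only 1 of the 22 with groups apart, against 4.10% of all genes wholly higher. It was also the only 1 with an unadjusted p under 0.05, against 4.25% of all genes.

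Cell cycle genes had 22 of 26 intervals within a doubling or a halving (84.6%), and 14 with a pseudocount of 0.1. Plk1, a kinase of mitosis, was at 1.10, 1.58 and 0.890 FPKM on Ta0 and 2.31, 2.57 and 1.58 on Ta3, with a log2 difference of 0.52 ± 0.21 (SE, interval 0.05 to 1.002), and Ta0 replicate 2 and Ta3 replicate 3 had nearly the same value. Plk1 was the only 1 of the 26 with an unadjusted p under 0.05, against 4.25% of all genes. Mcm7, of the replication helicase, was at 2.21, 3.05 and 2.82 FPKM on Ta0 and 3.08, 3.44 and 4.16 on Ta3, with a log2 difference of 0.30 ± 0.17 (SE, interval -0.08 to 0.69). Glycolysis and hypoxia genes were 14 above and 10 below 0. Pgk1, a glycolytic kinase, was at 314, 304 and 349 FPKM on Ta0 and 215, 149 and 305 on Ta3, with a log2 difference of -0.59 ± 0.34 (SE, interval -1.36 to 0.18). Lysosome and phagocytosis genes were 19 above and 13 below 0. Msr1, a scavenger receptor, was at 70.96, 55.1 and 80.4 FPKM on Ta0 and 45.3, 34.6 and 59.9 on Ta3, with a log2 difference of -0.57 ± 0.27 (SE, interval -1.18 to 0.03). Atp6v0d2, a proton pump subunit of osteoclasts and macrophages, was at 387, 331 and 397 FPKM on Ta0 and 272, 226 and 338 on Ta3, with a log2 difference of -0.43 ± 0.27 (SE, interval -1.05 to 0.20, and 0.03 at a common FPKM total). Mmp9, a gelatinase, was at 3.64, 4.76 and 4.32 FPKM on Ta0 and 5.63, 7.23 and 5.70 on Ta3, higher in each Ta3 library, with a log2 difference of 0.45 ± 0.28 (SE, interval -0.18 to 1.09).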
